A study of Homo sapiens with 4 samples.

Results

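The genes described here are 9 that make polyamines, control their making or carry their effect into translation: ODC1, AMD1, SRM, AZIN1, OAZ1, OAZ2, PAOX, EIF5A and DHPS. They were chosen by name from the 60651 genes of the count table, with earlier results of these data known, and are set beside MYCN. Each was found in the table under 1 Ensembl ID. The cells were CHP134, an established human neuroblastoma line with amplified MYCN. They received 13-cis retinoic acid (13cRA) at 5 µM, doxazosin, an alpha-1 adrenoceptor blocker, at 10 µM, both drugs at these doses (the combination), or DMSO at 0.04%. All 4 groups were collected at 24 h, and each group is 1 sample of the same line. Transcripts of single cells were read at full length in nanowells of 1 chip.

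The kept cells numbered 318 with 13cRA, 239 with doxazosin, 287 with the combination and 353 with DMSO, and their summed counts lay between 22636509 (13cRA) and 72192743 (the combination). Each treatment is 1 sample, and its cells do not stand in for replicates, so differences are given without replicate error and nothing was tested. Levels are CPM, the summed counts of a library scaled to a total of 1000000, and their 95% Poisson intervals cover counting error only. Of the 9 noradrenergic neuroblastoma markers listed, 6 or 7 had at least 5 CPM in every library, among them GATA3 and HAND2, while DBH and TH, which make catecholamines, were at or near 0 with at most 0.18 CPM. Markers of Schwann cells, fibroblasts, leukocytes, endothelium and epithelium summed to at most 9.01 CPM a list. RARB, a direct retinoic acid target, was at 23.6 CPM with 13cRA and 27.6 CPM with the combination, against 3.27 CPM with doxazosin and 1.27 CPM with DMSO, in the direction of the labels. The 13cRA library was the shallowest, and mitochondrially encoded mRNAs took 8.70% of its counts, against 5.72% with doxazosin, 5.51% with the combination and 5.54% with DMSO. The part of depth and of this share in the differences below was not tested.

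Polyamines (putrescine, spermidine and spermine) are small positively charged molecules that bind nucleic acids and are needed for growth. Ornithine decarboxylase (ODC1) makes putrescine from ornithine, S-adenosylmethionine decarboxylase (AMD1) makes the aminopropyl donor, and spermidine synthase (SRM) joins them. Antizymes (OAZ1, OAZ2) bind ODC1 and send it to the proteasome, and the antizyme inhibitor AZIN1 draws antizyme away. Spermidine also supplies the residue hypusine, which DHPS begins to build on the translation factor EIF5A. ODC1 is a textbook target of MYC proteins and lies on the same chromosome arm as MYCN, so in MYCN-amplified neuroblastoma the pathway is studied as a drug target. MYC proteins pair with MAX and bind the letters CACGTG, called the E-box.

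Promoters are shown for SRM and ODC1 because, of the 7 members with a promoter in the RefSeq table (GRCh38.p14), these 2 held CACGTG. Each window runs from 250 bases before to 50 bases after a transcript start and is printed on the strand of the gene, the minus strand for both, with the E-box letters in capitals.
SRM, chr1:11059969-11060268: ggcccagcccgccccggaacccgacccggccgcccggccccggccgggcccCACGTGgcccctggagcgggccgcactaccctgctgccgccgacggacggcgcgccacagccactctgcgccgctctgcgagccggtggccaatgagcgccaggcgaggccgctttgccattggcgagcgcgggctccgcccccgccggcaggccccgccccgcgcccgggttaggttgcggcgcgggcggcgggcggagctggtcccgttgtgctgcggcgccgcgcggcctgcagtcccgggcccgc
ODC1, first start, chr2:10448278-10448577: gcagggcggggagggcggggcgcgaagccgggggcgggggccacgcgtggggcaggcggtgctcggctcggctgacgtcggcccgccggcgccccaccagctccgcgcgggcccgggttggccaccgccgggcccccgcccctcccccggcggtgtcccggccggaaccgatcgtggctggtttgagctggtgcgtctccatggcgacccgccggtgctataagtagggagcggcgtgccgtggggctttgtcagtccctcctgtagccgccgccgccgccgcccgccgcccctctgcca
ODC1, second start, chr2:10447963-10448262: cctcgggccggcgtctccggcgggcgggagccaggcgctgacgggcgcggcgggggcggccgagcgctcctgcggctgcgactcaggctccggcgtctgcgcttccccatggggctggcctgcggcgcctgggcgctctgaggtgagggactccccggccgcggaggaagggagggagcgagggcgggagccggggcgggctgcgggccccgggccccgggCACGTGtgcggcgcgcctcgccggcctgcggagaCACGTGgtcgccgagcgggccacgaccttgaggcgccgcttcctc
CACGTG reads the same on both strands, so each match was counted once, and no other motif was searched. The SRM window held 1 match, which begins 199 bases before the start and lies upstream of the gene in GENCODE 29. The window at the second ODC1 start held 2 matches whose first bases are 34 bases apart, and GENCODE 29 places both in an intron of ODC1, downstream of the first start. The window at the first ODC1 start held none. Of all 35116 windows of this length, 7.26% held the letters and 0.664% held them 2 or more times. By symbol, 8.77% of 27305 had at least 1 window with a match. The windows of AMD1, OAZ1, OAZ2, EIF5A and DHPS, and that of MYCN, held no match, which says only that these letters are not in these 300 bases. Windows of AZIN1 and PAOX were not used here.

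In the 13cRA library the synthesis genes did not stand together. ODC1 was close to its DMSO level, while AMD1, which makes the aminopropyl donor, and EIF5A, the factor that carries hypusine, were lower, and MYCN was higher. Of the 9 members, 2 lay past a log2 difference of 0.5, both lower with 13cRA. Among all 6452 genes with at least 20 CPM in 1 of the 2 libraries, 33.3% lay past that value either way and 18.0% lay past it on the lower side. The share of members is near that background. The median difference of the 9 members was −0.26, and that of all these genes −0.05. These 2 medians do not rest on the same floor, because in each comparison only 7 of the 9 members reached 20 CPM. With 13cRA these 7 ran from −0.66 (EIF5A) to 0.06 (ODC1), with OAZ1 in the middle at −0.42. DHPS and PAOX lie below that floor and are still part of the counts and medians of the 9. With 1 added to each CPM, PAOX could not pass 0.5 at its few counts.

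ODC1 was at 628 CPM (interval 618 to 639) with 13cRA, 569 CPM (562 to 575) with doxazosin, 539 CPM (533 to 544) with the combination and 602 CPM (595 to 609) with DMSO. No interval overlapped the next in this order, yet the 4 levels lay close together. The log2 difference from DMSO was 0.06 with 13cRA, −0.08 with doxazosin and −0.16 with the combination. The direction with 13cRA turned to −0.01 once the 1 cell with the most ODC1 counts was left out of each library. That cell held 6.43% of the ODC1 counts with 13cRA, against 1.62% with DMSO. In the median cell at equal depth, ODC1 was at 559 CPM both with 13cRA and with DMSO.

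AMD1 was at 66.9 CPM (63.6 to 70.3) with 13cRA, 109 CPM (106 to 112) with doxazosin, 91.6 CPM (89.4 to 93.9) with the combination and 103 CPM (100.1 to 106) with DMSO. The 13cRA library stood below the other 3, and doxazosin was slightly above DMSO. The log2 difference of 13cRA from DMSO was −0.62, with alternatives from −0.95 to −0.495, of which the one limited to cells of overlapping depth no longer passed 0.5. SRM was at 235 CPM with 13cRA, 241 CPM with doxazosin, 256 CPM with the combination and 264 CPM with DMSO. For SRM the intervals of 13cRA and doxazosin overlapped, as did those of the combination and DMSO.

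Among the brakes on ODC1, both antizymes were lower with 13cRA than with DMSO, short of the 0.5 mark. OAZ1 was at 463 CPM (454 to 472) with 13cRA, 567 CPM (560.4 to 574) with doxazosin, 539 CPM (533 to 544) with the combination and 618 CPM (611 to 625) with DMSO, so every treated library was below DMSO. The log2 differences from DMSO were −0.42, −0.12 and −0.20 in the same order. OAZ2 was at 75.5 CPM with 13cRA, 118 CPM with doxazosin, 91.1 CPM with the combination and 104 CPM with DMSO. OAZ2 thus stood highest with doxazosin, 0.18 above DMSO in log2, and lowest with 13cRA, 0.46 below it. AZIN1, which opposes the antizymes, was at 99.4 CPM with 13cRA, 132 CPM with doxazosin, 124 CPM with the combination and 119 CPM with DMSO. Its log2 difference with 13cRA was −0.26, and −0.44 without the 1 cell that held the most AZIN1 counts in each library. That cell carried 14.5% of the AZIN1 counts with 13cRA, against 2.96% with DMSO.

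EIF5A had the lowest 13cRA level relative to DMSO of the 9 members. It was at 219 CPM (213 to 226) with 13cRA, 304 CPM (299 to 309) with doxazosin, 277 CPM (273 to 281) with the combination and 348 CPM (342 to 353) with DMSO. All 3 treated libraries were below DMSO, by 0.66, 0.19 and 0.33 in log2 with 13cRA, doxazosin and the combination. The 13cRA difference stayed past 0.5 under all 11 alternatives, from −0.995 to −0.53. Counts on 4 annotated copies and pseudogenes of EIF5A, including EIF5AL1, came to 0.789% of the EIF5A counts. How reads shared between them were counted is not known, so this share does not bound the uncertain part of the EIF5A level.

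DHPS, which begins hypusine synthesis, was low throughout, at 5.26 CPM (4.36 to 6.29) with 13cRA, 3.57 CPM (3.05 to 4.16) with doxazosin, 3.71 CPM (3.28 to 4.18) with the combination and 4.3 CPM (3.73 to 4.92) with DMSO. Neighbouring levels overlapped, and 1 cell held 37.0% of the DHPS counts with 13cRA. In GENCODE 29 its exons share 116 bases with WDR83 on the opposite strand and 1157 bases with AC010422.8 on its own strand, so reads there may have been split or set aside, and the DHPS level is uncertain. PAOX, which oxidises acetylated polyamines, had 4 counts with 13cRA, 2 with doxazosin, 19 with the combination and 4 with DMSO, in at most 1.05% of kept cells of any library. No difference is given for PAOX at this depth. It too shares exon bases with another gene, AL360181.3.

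MYCN was at 1168 CPM (1154 to 1183) with 13cRA, 759 CPM (751 to 767) with doxazosin, 815 CPM (809 to 822) with the combination and 759.6 CPM (752 to 767) with DMSO. It was highest with 13cRA, and the doxazosin and DMSO intervals overlapped. The log2 difference of 13cRA from DMSO was 0.62, and it was below 0.5 in 5 of 11 alternatives, the lowest being 0.29 with TMM scaling. In the median cell at equal depth MYCN was at 794 CPM with 13cRA, against 721 CPM with DMSO. The 10 cells with the most MYCN held 30.4% of its counts with 13cRA, against 11.7% with DMSO. The antisense gene MYCNOS shares 98 exon bases with MYCN and had 34964 counts over the 4 libraries, against 156913 for MYCN, and whether the counting used strand is not known.

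**Figure D1:**
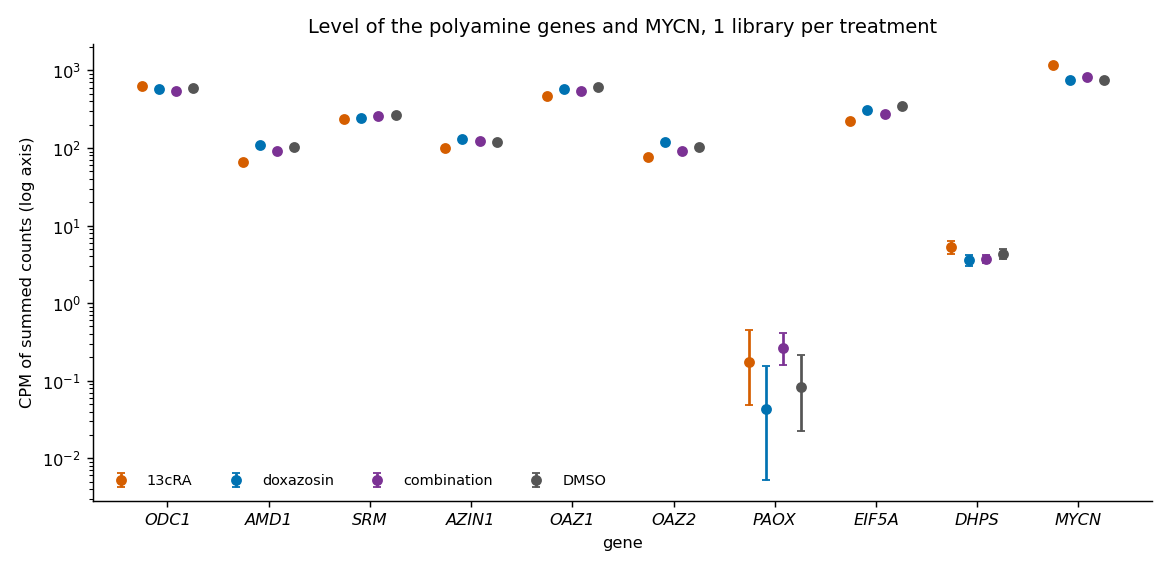
Level of each of the 9 polyamine genes and MYCN in the 13cRA, doxazosin, combination and DMSO libraries, in CPM of summed counts on a log axis. Points are libraries and bars are 95% Poisson intervals of the count. ODC1, OAZ1 and MYCN lie between 463 and 1168 CPM, DHPS between 3.57 and 5.26 CPM, and PAOX below 0.3 CPM in every library.

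Scaling moves every gene of the 13cRA library. With TMM factors the median difference of all genes from DMSO became −0.37, a shift of −0.33, and with DESeq2 size factors it became −0.34, a shift of −0.29. The split of genes past 0.5 moved with it, to 6.66% higher and 40.9% lower with TMM and 7.28% higher and 37.8% lower with DESeq2 factors, against 15.3% higher and 18.0% lower with CPM. Relative to the median of all genes, the 13cRA difference of ODC1 was 0.11, of SRM −0.12, of AZIN1 −0.21, of OAZ1 −0.37 and of OAZ2 −0.41. On that footing AMD1 was at −0.57, EIF5A at −0.62 and MYCN at 0.67. With TMM the plain differences were −0.27 for ODC1, −0.95 for AMD1 and −0.995 for EIF5A, so the sign of ODC1 depends on the scaling. Of the 11 alternatives tried, 6 kept the sign of the ODC1 difference. With 1 added to each CPM, a scaling shifts all but the low genes of a library nearly alike. The order of MYCN and the members with at least 20 CPM is thus the same under CPM and TMM. In that order EIF5A and AMD1 stand at the low end and ODC1 and MYCN at the high end. Members past 0.5 then numbered 6 with TMM and 5 with DESeq2 factors, all lower, beside the larger share of lower genes just given.

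**Figure D2:**
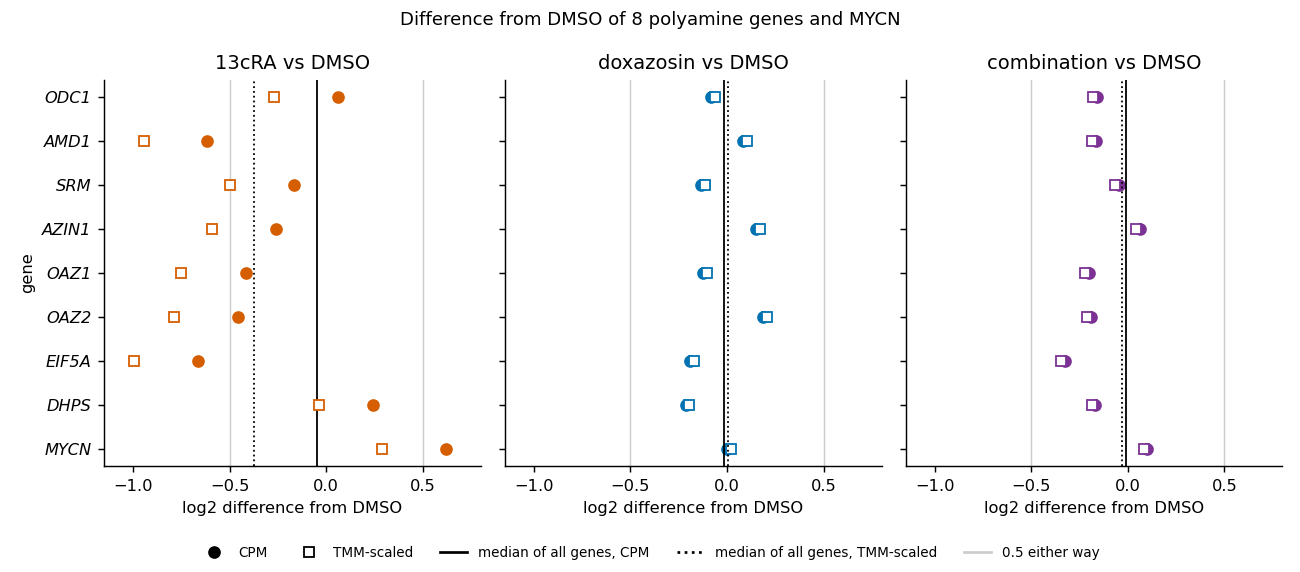
Log2 difference from DMSO of 8 polyamine genes and MYCN in the 13cRA, doxazosin and combination libraries (PAOX, with 2 to 19 counts, is left out). Filled circles are CPM and open squares TMM-scaled values, solid and dotted black lines are the medians of all genes under each, and grey lines mark 0.5 either way. With 13cRA the squares sit left of the circles by about the shift of the median, while with doxazosin and the combination circles and squares nearly coincide.

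Ratios between 2 genes of the same library do not depend on scaling. The ratio of ODC1 to OAZ1 counts was 1.36 (95% interval 1.32 to 1.39, counting error only) with 13cRA, 1.00 with doxazosin, 1.00 with the combination and 0.97 with DMSO. The 13cRA library thus stood apart, and the combination stood with doxazosin. The ratio of ODC1 to AMD1 was 9.39 (8.91 to 9.91) with 13cRA, 5.21 with doxazosin, 5.88 with the combination and 5.84 with DMSO. The same library stood apart again. The ratio of EIF5A to MYCN was 0.19 with 13cRA, 0.40 with doxazosin, 0.34 with the combination and 0.46 with DMSO. The ratio of ODC1 to MYCN was 0.54 with 13cRA, 0.75 with doxazosin, 0.66 with the combination and 0.79 with DMSO. In all kept cells both ratios to MYCN were lowest with 13cRA and highest with DMSO. That order depends on the cells used. In cells of overlapping depth MYCN stood 0.37 above DMSO in log2 with both 13cRA and the combination. ODC1 stood there at 0.12 and −0.02, so its ratio to MYCN was lower with the combination. With doxazosin MYCN stood at −0.17, ODC1 at −0.08 and EIF5A at −0.07, so neither ratio was highest with DMSO.

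The share of cells in which a gene was seen was compared with every cell thinned to 34000 counts, which leaves 249 cells with 13cRA, 235 with doxazosin, 270 with the combination and 328 with DMSO. Intervals of a share are exact 95% binomial ones and cover the sampling of cells only. AMD1 had a count in 53.0% of cells (46.6 to 59.3%) with 13cRA, 76.6% with doxazosin, 71.9% with the combination and 77.1% (72.2 to 81.6%) with DMSO. AZIN1 had one in 57.4% (51.0 to 63.7%) with 13cRA, 86.0% with doxazosin, 80.7% with the combination and 84.1% (79.7 to 87.9%) with DMSO. OAZ2 had one in 57.4% with 13cRA, 80.4% with doxazosin, 72.2% with the combination and 78.0% with DMSO. For these 3 genes the 13cRA interval lay below the intervals of the other libraries, in the same direction as the CPM. How many of all genes did the same was not counted. Thinned 13cRA cells also held fewer genes of any kind, with a median of 3892 against 4773 with doxazosin, 4709 with the combination and 4686 with DMSO, so the 3 shares move with that number and its part was not tested. ODC1, SRM, OAZ1, EIF5A and MYCN were seen in at least 90.4% of cells in every library. Yet for SRM the 13cRA interval, 86.0 to 93.7%, also lay below that of DMSO, 94.9 to 98.7%. So did that of EIF5A, 91.7 to 97.5% against 97.8 to 99.9%, and narrowly that of OAZ1. For ODC1 and MYCN the intervals of 13cRA and DMSO overlapped. DHPS was seen in 6.02% of 13cRA cells, 8.51% of doxazosin cells, 10.0% of combination cells and 9.15% of DMSO cells, with overlapping intervals. Without thinning the AMD1 shares were 58.2% with 13cRA, 88.7% with doxazosin, 86.1% with the combination and 85.3% with DMSO.

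**Figure D3:**
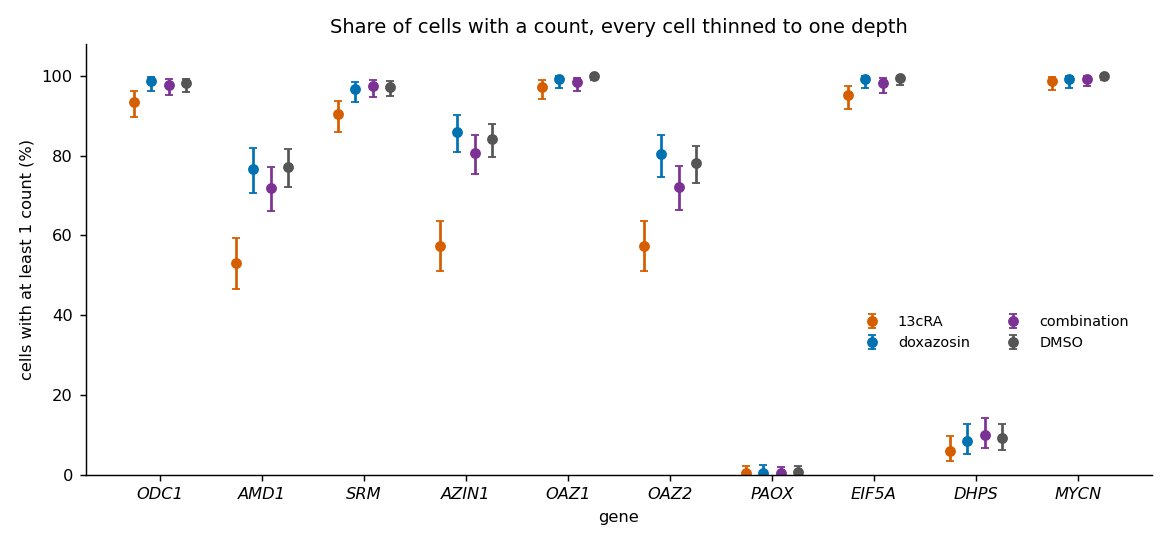
Share of cells with at least 1 count of each gene, in percent, after thinning every cell to 34000 counts, for the 13cRA, doxazosin, combination and DMSO libraries. Bars are exact 95% binomial intervals. AMD1, AZIN1 and OAZ2 are seen in 53.0 to 57.4% of 13cRA cells, against 71.9 to 86.0% of the cells of the other libraries.

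With doxazosin alone the members lay near DMSO in all kept cells, as most genes did. None of the 9 passed 0.5 in either direction, where 6.76% of 6167 genes did, 3.7% higher and 3.06% lower. Their median difference was −0.08, against −0.01 for all genes, and those with at least 20 CPM ran from −0.19 (EIF5A) to 0.18 (OAZ2). The direction of OAZ2 turned to −0.20 in the 58 doxazosin cells and 137 DMSO cells of overlapping depth. In these cells AMD1 stood at 0.49, against 0.08 in all kept cells. MYCN differed by less than 0.01 in all kept cells and stood at −0.17 in those of overlapping depth.

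In the combination none of the 9 members passed 0.5 against DMSO, where 15.8% of 6264 genes did, 8.09% higher and 7.69% lower, and their median difference was −0.17, against −0.01 for all genes. EIF5A was farthest from DMSO among members with at least 20 CPM, at −0.33, followed by OAZ1 at −0.20 and OAZ2 at −0.19. In cells of overlapping depth OAZ2 turned to 0.03. All 3 comparisons with DMSO share the same DMSO library, so likeness between them is not reported. Against 13cRA, the combination was higher for AMD1 by 0.45, for EIF5A by 0.34 and for AZIN1 by 0.32 in log2, and lower for ODC1 by 0.22 and for MYCN by 0.52. No member passed 0.5 there, with 32.5% of 6406 genes past it, and the members' median was 0.22 against 0.03 for all genes. TMM scaling moved the median of all genes in that comparison by 0.31, to 0.34. It then placed 37.6% of genes higher and 5.84% lower, where CPM placed 17.5% higher and 15% lower, and 5 members passed 0.5, all higher in the combination. Under TMM the ODC1 difference turned to 0.09, and that of MYCN was −0.20. In cells of overlapping depth the MYCN difference was −0.01, and it passed 0.5 in 4 of 11 alternatives. Against doxazosin no member passed 0.5, with 15% of 6246 genes past it, 8.2% higher and 6.84% lower. OAZ2 was the farthest of those with at least 20 CPM, at −0.38, but stood at 0.23 in cells of overlapping depth.

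The departure from additivity is the log2 level of the combination minus 13cRA minus doxazosin plus DMSO, so 0 means that the combination differed from DMSO by the sum of the single drugs. It was 0.53 for EIF5A, 0.37 for AMD1, 0.34 for OAZ1, 0.25 for SRM, 0.17 for AZIN1, 0.08 for OAZ2 and −0.14 for ODC1. The quartiles of 6741 genes were −0.27 and 0.36 and their median 0.06, so EIF5A stood above the upper quartile and AMD1 lay at it. MYCN was at −0.52. In cells of overlapping depth, a window that holds 37 combination cells, these values were 0.39 for EIF5A, 0.08 for AMD1, 0.24 for OAZ1, 0.48 for SRM, 0.38 for AZIN1, 0.57 for OAZ2, −0.06 for ODC1 and 0.16 for MYCN, so the order of the members depends on the cells used. The values also depend on the scaling, because each departure includes the 13cRA library. Over all 11 alternatives, TMM and DESeq2 scaling among them, EIF5A ran from 0.39 to 0.82 and AMD1 from 0.08 to 0.66. ODC1 ran from −0.25 to 0.15, with its sign kept in 9 of 11, and MYCN from −0.58 to 0.16.

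Around the members, 34 genes were listed, of polyamine supply, transport, breakdown and control. They include MYC, MAX, MXI1 and MNT, which are regulators of MYC type and not polyamine genes. Up to 24 of the 34 had at least 5 CPM in 1 of the 2 libraries compared. With 13cRA, of 24 genes, 5 were past 0.5 on the higher side, MXI1 and MNT among them, and 9 on the lower side. The median of the 24 was −0.45. Among all 10214 genes at the same 5 CPM floor, 20.2% were past 0.5 on the higher side and 17.6% on the lower side, with a median of 0.002. With doxazosin 1 (MNT) was higher and 0 lower of 23, with a median of 0.02. Among all genes 6.02% were higher and 6.88% lower there, with a median of −0.02. With the combination 2 were higher and 4 lower of 23, where 10.7% of all genes were higher and 11.6% lower, and the medians of the list and of all genes were both −0.02.

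Breakdown was represented by SAT1, which acetylates spermidine and spermine for export or oxidation. SAT1 was at 20.4 CPM (18.5 to 22.3) with 13cRA, 6.48 CPM (5.76 to 7.25) with doxazosin, 21.1 CPM (20.01 to 22.1) with the combination and 6.17 CPM (5.48 to 6.91) with DMSO. Both libraries that received 13cRA were above both that did not. The log2 difference from DMSO was 1.58 with 13cRA and 1.62 with the combination, and 0.06 with doxazosin. Few cells carried it: thinned cells with a SAT1 count made up 10.4% with 13cRA, 12.3% with doxazosin, 18.5% with the combination and 13.1% with DMSO. The share with 13cRA does not follow the CPM, and 1 cell held 33.4% of the SAT1 counts there, against 8.08% with DMSO. Without that cell in each library the 13cRA difference was 1.13. With 13cRA it lay past 0.5 under all 11 alternatives, from 0.83 to 1.64, and with the combination under 10 of 11, the exception being 0.18 in cells of overlapping depth. The ratio of ODC1 to SAT1 counts was 30.8 with 13cRA, 87.8 with doxazosin, 25.6 with the combination and 97.6 with DMSO. SMOX, which oxidises spermine, had at most 2.92 CPM in any library. SAT2, a related acetyltransferase gene, was at 17.5 CPM with 13cRA, 28.8 CPM with doxazosin, 34.0 CPM with the combination and 28.3 CPM with DMSO.

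Spermine synthase, SMS, was at 282 CPM with 13cRA, 375 CPM with doxazosin, 377 CPM with the combination and 384 CPM with DMSO. Like AMD1, it was lowest with 13cRA, by 0.44 in log2 against DMSO. On the supply side, PYCR1, which makes proline, was at 48.4 CPM with 13cRA, 111 CPM with doxazosin, 83.8 CPM with the combination and 117 CPM with DMSO. OAT, which interconverts ornithine and the proline precursor, was at 27.5 CPM with 13cRA, 56.8 CPM with doxazosin, 61.5 CPM with the combination and 57.9 CPM with DMSO. Both were lowest with 13cRA, by 1.25 and 1.05 in log2 against DMSO, and OAT in the combination was slightly above DMSO. ARG2, the arginase that releases ornithine in mitochondria, was at 10.4 CPM with 13cRA, 29.3 CPM with doxazosin, 18.4 CPM with the combination and 24.9 CPM with DMSO. It was lower than DMSO by 1.18 in log2 with 13cRA and by 0.41 with the combination.

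MAT2A, which makes the S-adenosylmethionine that AMD1 uses, was at 109 CPM with 13cRA, 223 CPM with doxazosin, 163 CPM with the combination and 225 CPM with DMSO. Its regulatory partner MAT2B was at 62.8 CPM with 13cRA, 141 CPM with doxazosin, 106 CPM with the combination and 104 CPM with DMSO. MAT2A and MAT2B were both lowest with 13cRA, by 1.04 and 0.72 in log2 against DMSO, while with the combination MAT2A was lower than DMSO by 0.46 and MAT2B lay 0.02 above it. In the combination the lowest of the genes named was SLC7A1, a carrier of cationic amino acids that brings in arginine, at 27.2 CPM with 13cRA, 33.9 CPM with doxazosin, 19.1 CPM with the combination and 37.4 CPM with DMSO. ADI1, of the methionine salvage route that recycles the by-product of SRM and SMS, was at 42.3 CPM with 13cRA, 51.2 CPM with doxazosin, 36.8 CPM with the combination and 61.0 CPM with DMSO. Their combination differences from DMSO were −0.93 for SLC7A1 and −0.71 for ADI1. ATP13A3, a polyamine transporter, was at −0.52 in the combination against DMSO and −0.74 against doxazosin.

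EIF5A2, the second gene for the hypusine-carrying factor, was at 3.49 CPM (2.76 to 4.35) with 13cRA, 13.1 CPM (12.1 to 14.2) with doxazosin, 10.7 CPM (9.93 to 11.4) with the combination and 15.7 CPM (14.6 to 16.9) with DMSO. It was lowest with 13cRA, as EIF5A was, with a log2 difference of −1.89 from DMSO that lay past 0.5 under all 11 alternatives, from −2.17 to −1.09. Thinned cells with an EIF5A2 count made up 4.82% (2.51 to 8.27%) with 13cRA, 29.4% (23.6 to 35.6%) with doxazosin, 19.3% (14.7 to 24.5%) with the combination and 18.0% (14.0 to 22.6%) with DMSO. The share was thus highest with doxazosin, unlike the CPM, and 1 cell held 29.8% of the EIF5A2 counts with DMSO. Without the cell of each library with the most EIF5A2 counts, the doxazosin difference from DMSO was 0.14, against −0.24 in all kept cells. DOHH, which completes hypusine, had at most 3.09 CPM, and 64.3% of its counts with 13cRA came from 1 cell. EIF5AL1, a near copy of EIF5A, had at most 2.78 CPM.

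**Figure D4:**
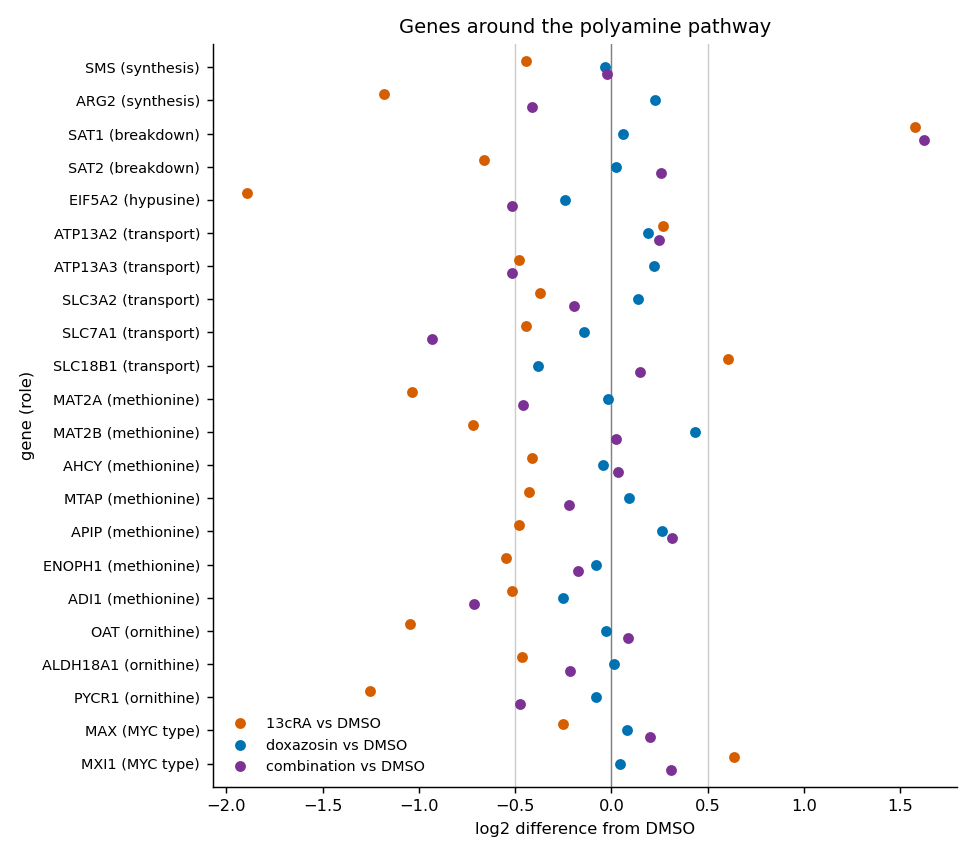
Log2 difference from DMSO of the 22 listed genes around the pathway with at least 5 CPM in each comparison with DMSO, each named with its role, for the 13cRA, doxazosin and combination libraries. Each point is 1 library against DMSO, with no replicate, and grey lines mark 0.5 either way. SAT1 stands at 1.58 and 1.62 with 13cRA and the combination, and EIF5A2, PYCR1, ARG2, OAT and MAT2A lie lowest with 13cRA.

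Levels of different genes were compared per length, as CPM per kilobase of merged GENCODE 29 exons. With DMSO, MYCN was at 292, ODC1 at 203, OAZ1 at 180, SRM at 139 and EIF5A at 123 CPM per kilobase. AZIN1 at 18.5, AMD1 at 14.7 and OAZ2 at 13.6 CPM per kilobase formed a lower tier, above DHPS at 1.43 and PAOX at 0.04. With 13cRA, MYCN was at 449, ODC1 at 212, OAZ1 at 135, SRM at 124 and EIF5A at 77.9 CPM per kilobase. ODC1 was thus the most abundant member per length, as it was in the other 2 libraries. In GENCODE 29 on GRCh38, which is not known to be the annotation behind the counts, these are protein-coding genes. ODC1 (ENSG00000115758.13) lies on chromosome 2 at 10439968 to 10448504, and MYCN (ENSG00000134323.12) on the same chromosome at 15940564 to 15947007. AMD1 (ENSG00000123505.19) lies on chromosome 6 at 110874770 to 110895713, SRM (ENSG00000116649.10) on chromosome 1 at 11054584 to 11060024 and EIF5A (ENSG00000132507.18) on chromosome 17 at 7306999 to 7312463. OAZ1 (ENSG00000104904.12) lies on chromosome 19 at 2269509 to 2273490 and OAZ2 (ENSG00000180304.14) on chromosome 15 at 64687573 to 64703281.

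Within each library, thinned cells were ranked by the summed counts of 54 G2M genes, 43 S-phase genes or by MYCN. The 83 13cRA, 78 doxazosin, 90 combination and 109 DMSO cells at the top of a ranking were set against as many at its bottom. Cells of 1 library are not replicates, so the directions in the 4 libraries are a description. By the G2M list, ODC1, AMD1 and AZIN1 were higher in top cells in 4 of 4 libraries, as were 19.7% of the 5127 genes compared, and OAZ2 and MYCN were lower in 4 of 4, as were 13.0% of genes. ODC1 was at 719 CPM in top and 497 CPM in bottom cells with 13cRA, 540.0 and 509 CPM with doxazosin, 564 and 415 CPM with the combination, and 613 and 549 CPM with DMSO. AMD1 was at 78.7 and 60.6 CPM with 13cRA, 112 and 105 CPM with doxazosin, 110.1 and 71.9 CPM with the combination, and 125 and 78.3 CPM with DMSO. ODC1 was 0.30 higher on average in log2 and AMD1 0.43, with the smallest gaps of both in the doxazosin library. With all cells divided at the median of the G2M list, ODC1 and AZIN1 were higher in 3 of 4 libraries, OAZ2 in 1 of 4 and AMD1 in 4 of 4, as were 17.4% of genes.

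By the S list, SRM, AZIN1, OAZ1 and EIF5A were higher in top cells in 4 of 4 libraries, as were 20.6% of genes. SRM was at 248 and 220 CPM in top and bottom cells with 13cRA, 256 and 207 CPM with doxazosin, 285 and 229 CPM with the combination, and 281 and 237 CPM with DMSO. The gaps of SRM ran from 0.17 to 0.31 in log2 and were the most even of the members by this list. Top cells by either list also held more genes, with medians of 4007 against 3671 by the G2M list with 13cRA and 4730 against 4628 with DMSO, and the part of this was not tested. MYCN was lower in top cells in 4 of 4 libraries by the S list, as were 13.2% of genes. Its log2 differences were −0.41 with 13cRA, −0.28 with doxazosin, −0.13 with the combination and only −0.01 with DMSO. By the G2M list MYCN was also lower in top cells in 4 of 4 libraries. It was there at 873 and 1337 CPM with 13cRA, 706 and 790.0 CPM with doxazosin, 781 and 926 CPM with the combination, and 661 and 866 CPM with DMSO. With all cells divided at the median, MYCN was lower in 4 of 4 libraries by the G2M list, as were 12.1% of genes, and in 2 of 4 by the S list.

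Ranked by MYCN itself, 1 member kept a direction in all 4 libraries: AZIN1, which was lower in top cells by 0.09 to 0.85 in log2, as 9.52% of genes were lower in 4 of 4. The 0.85 belongs to the 13cRA library, where 1 cell held 14.5% of the AZIN1 counts. It was 0.17 with doxazosin, 0.09 with the combination and 0.12 with DMSO. With all cells divided at the median of MYCN, AZIN1 and OAZ1 were lower in 4 of 4 libraries, as were 8.87% of genes, and AMD1 was higher in 4 of 4, as were 10.3%. ODC1 was higher in top cells with doxazosin and DMSO and lower with 13cRA and the combination. Across thinned cells the Spearman correlation of ODC1 with MYCN was 0.04 on average over the 4 libraries, from −0.05 to 0.15, and for the other members the averages lay between −0.09 (OAZ1) and 0.06 (AMD1). In counts this sparse such weak values are no finding. Of 2692 genes, the 5 whose levels followed ODC1 most closely across cells were HSP90AA1 at a mean Spearman correlation of 0.24, CCT6A at 0.22, HMGB1 at 0.22, MYBL2 at 0.21 and HNRNPA2B1 at 0.21, where the median gene had 0.03. These means are over 4 libraries of 235 to 328 thinned cells, and the cells of each share library and depth.

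**Figure D5:**
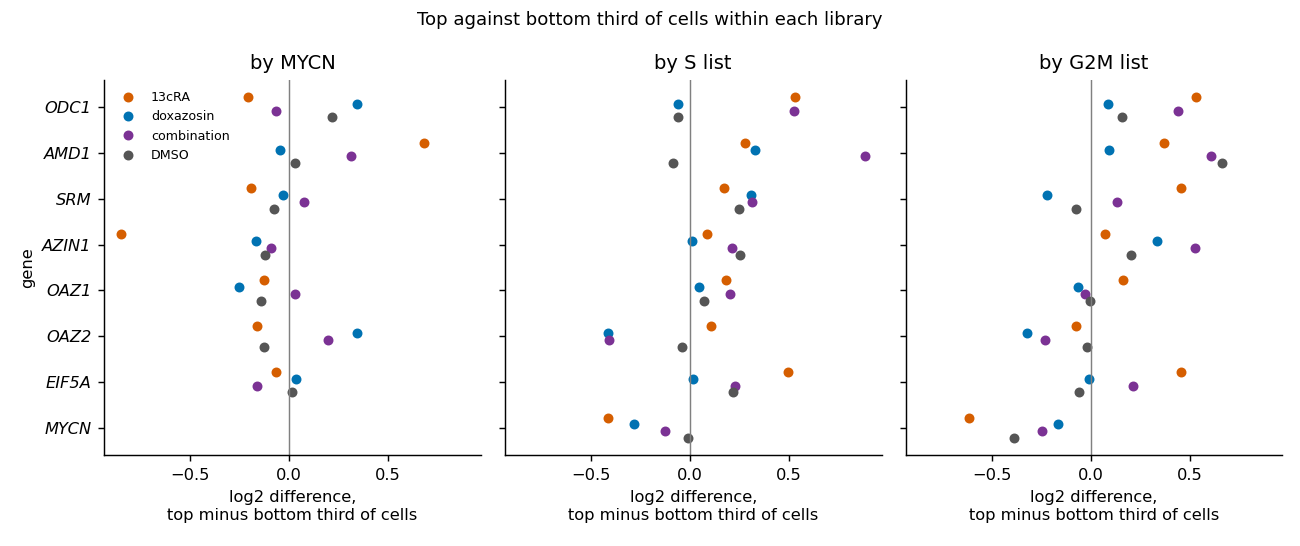
Log2 difference between the top and bottom cells (78 to 109 each), ranked within each library by MYCN, by the S list or by the G2M list. Points are the 13cRA, doxazosin, combination and DMSO libraries, and a point right of 0 is higher in top cells. By the G2M list all 4 points of ODC1, AMD1 and AZIN1 lie right of 0, and all 4 of OAZ2 and MYCN left of it.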

How the data were processed

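The deposited table holds whole-number counts per gene and cell for 1287 cells, with column names that tie each cell to its treatment. Per the submitters' processing notes, the tools include featureCounts, STAR 2.7.8a, Seurat 4.3.0, fastp 0.23.3 and bcl2fastq. Builds GRCh37 and GRCh38.p13 are both named there, without a role. Not given in the sources used here are the annotation release, strandedness and handling of shared reads. Amplified reads carry no molecular identifiers and so do not count molecules, and intervals cover counting error only. Wells with single live cells had been chosen by imaging, per the labels' protocols, and no doublet caller was run.

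Cells with at least 500 genes and at most 25% mitochondrial counts were kept (1197), summed per library and scaled to CPM. Differences are log2 of (CPM + 1) ratios. A value of 0.5 was used as the mark, and genes with at least 20 CPM in 1 of the 2 libraries are the background. For shares and rankings, each cell was randomly thinned to 34000 counts (the 10th percentile, rounded down) and shallower cells were dropped, leaving 1082. TMM (edgeR 4.0.16) and DESeq2 1.42.0 factors were alternatives. The difference step was tested on simulated data. The 9 members and MYCN were always named; of the 34 listed genes, SMS, SAT1, SMOX, DOHH, EIF5A2 and EIF5AL1, and up to 6 others per comparison with the largest differences. Members and lists were chosen with earlier results of these data known. The promoter table is RefSeq, GRCh38.p14.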

Additional observations from a re-analysis of the deposited data

Results flagged for a closer look

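MNT, a MAX partner that opposes MYC, differed in direction between the doxazosin effect without and with 13cRA. It was at 6.15 CPM with doxazosin against 3.61 CPM with DMSO, a log2 difference of 0.63, and at 4.56 CPM with the combination against 9.85 CPM with 13cRA, a difference of −0.97. With 1 library on each side this difference between the effects was not tested. In the doxazosin library 1 cell held 35.2% of the MNT counts.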

How the results depend on the processing

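No paired analysis was possible because each treatment has 1 sample. No replicate could be left out for the same reason. The number of members past 0.5, 2 for 13cRA against DMSO, was 6 with TMM factors, 5 with DESeq2 size factors and 1 in cells of overlapping depth. Of all genes, 6.66% were then higher and 40.9% lower with TMM factors, and 7.28% and 37.8% with DESeq2 size factors. In cells of overlapping depth these shares were 14.3% and 16.8%. For the combination against 13cRA the number of members was 0, and became 5 with TMM factors, 4 with DESeq2 size factors, 2 with the mean of per-cell CPM, 2 with no cell filter, 1 with thinned counts and 1 in cells of overlapping depth. Of all genes, 37.6% were then higher and 5.84% lower with TMM factors, and 32.0% and 7.71% with DESeq2 size factors. These shares were 14.1% and 13.5% with the mean of per-cell CPM, and 19.3% and 14.5% with no cell filter. They were 15.6% and 13.7% with thinned counts, and 16.8% and 15.7% in cells of overlapping depth. For the other 3 comparisons the number of members past 0.5 stayed at 0 under every alternative tried. In cells of overlapping depth the sign turned for 21 of the 80 log2 differences recomputed and 3 of 10 departures from additivity. Of those past 0.5 in all kept cells, these were EIF5A2 in the combination against DMSO (0.78), SAT1 in the combination against doxazosin (−0.29) and the departure of MYCN (0.16). That window, 34000 to 119000 counts, holds 203 13cRA, 58 doxazosin, 37 combination and 137 DMSO cells. The cause of these changes was not tested, apart from the scaling shift given above. Leaving out cells with over 9000 genes, or the 1 cell of each library with the most counts of a gene, was chosen after seeing the data. Genes under about 20 CPM rest on few cells, and 1 library for each treatment limits every comparison.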
